A study of Mus musculus with 6 samples.

Results

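Disease-associated microglia (DAM) genes are genes whose expression is known to rise in microglia, the resident macrophages of the brain, near amyloid plaques, in aged white matter and around dying cells. In the usual account of this state, microglia first turn up Apoe, Tyrobp and other genes, and signalling through the receptor TREM2 and its adaptor TYROBP is then needed for a later set that includes Itgax, Clec7a, Lpl, Axl, Cst7 and Spp1, while homeostatic genes such as P2ry12 and Tmem119 fall. A set of 10 such genes was followed here: Trem2, Tyrobp, Itgax, Clec7a, Axl, Apoe, Lpl, Cst7, Cd68 and Spp1. They were chosen by name, with earlier results of these data known. They are 10 of the 52550 genes in the deposited count table, and all 10 passed the filter on low counts.

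The libraries came from the hippocampus of male C57BL/6 J mice, with 3 labelled WT (called control here) and 3 labelled hnRNPDL-KD (called L-DL KD here). Both groups had AAV injected into the CA1 area on both sides at 8 weeks of age. It carried a control shRNA or shRNAs against the long isoform of the RNA-binding protein hnRNP DL (L-DL). The L-DL shRNAs were driven by the H1 promoter, while the CamkIIα promoter, which is active in excitatory neurons, drove zsGreen. The control virus was given at a higher titre than the L-DL virus, so that titre and shRNA cannot be told apart. One label calls the treated mice hnRNP DL-/-, but the method was a knockdown. Nothing in the labels says more of how far the replicates were separate, so the p-values measure the spread between these libraries.

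Reads counted on genes numbered 16052529 to 16995425 per control library and 16525467 to 17913064 per L-DL KD library. The targeted gene Hnrnpdl had 176, 183 and 170 CPM (read counts scaled to a common library size with edgeR's TMM factors) in the controls and 217, 150 and 173 CPM in the other group, a log2 difference of 0.03 (SE 0.12, adjusted p = 0.898 by edgeR's quasi-likelihood test). The gene count sums all isoforms and does not measure L-DL alone, so the second group is the libraries labelled L-DL KD throughout. Its replicate 1 stood further from replicates 2 and 3 (25.6 and 33.3, as the mean chi-square per gene of a pair) than these stood from each other (10.2), against 7.1 to 12.5 among the controls.

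All 10 genes had higher mean expression in the L-DL KD-labelled libraries, and 8 of the 10 were called higher at an adjusted p under 0.05 by edgeR's quasi-likelihood test, with none called lower. Of all 17621 genes tested, 15.6% were called higher and 15.0% lower. The 10 genes and the lists below were chosen with earlier results of these data known, so these shares give scale and are no test. The median log2 fold change of the 10 genes was 0.98, with a range from 0.52 to 2.23, beside a median of 0.01 over all genes tested. The groups did not overlap for the same number of the genes, 8 of 10, where 23.8% of all genes tested lay apart with the higher values in the L-DL KD-labelled libraries. Since this is RNA of whole tissue, more cells of a type and more RNA per cell cannot be told apart.

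**Figure D1:**
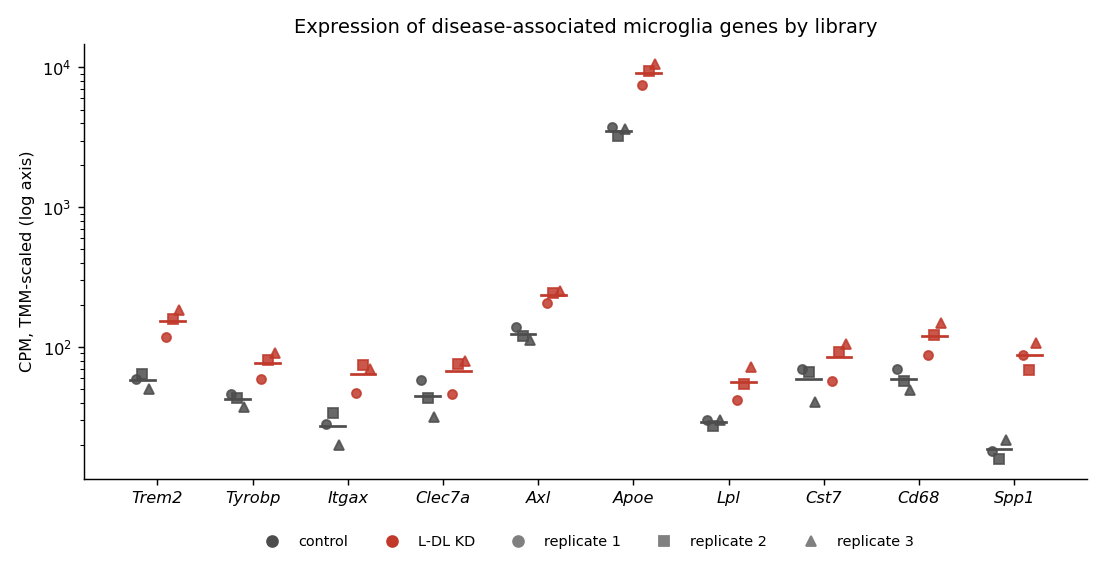
Expression of the 10 genes in CPM on a log axis, with 1 point per library (shape for the replicate number) and a line at the group mean. Spp1 shows the widest gap between the groups, and Clec7a and Cst7 overlap. Replicate 1 is the lowest of the libraries labelled L-DL KD for 9 of the 10 genes. The same replicate was lowest for 10 of 13 homeostatic microglia genes and for 6640 of all 17621 genes tested.

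TREM2 is a surface receptor for lipids and lipoproteins, and TYROBP (DAP12) is the adaptor that passes its signal on through immunoreceptor tyrosine-based activation motifs. Trem2 (ENSMUSG00000023992, chr17:48346401-48354147, plus strand, GRCm38) had 58.6, 64.7 and 50.3 CPM in the controls and 119, 158 and 184 CPM in the L-DL KD-labelled libraries. Every library labelled L-DL KD was above every control, and the log2 fold change was 1.41 (SE 0.16, 95% confidence interval 1.03 to 1.78, adjusted p = 0.000733). Tyrobp (ENSMUSG00000030579, chr7:30413760-30417585, plus strand) had 46.3, 43.2 and 37.1 CPM in the controls and 59.6, 80.8 and 90.8 CPM in the other group. Its groups were also apart, with a smaller rise of 0.87 on the log2 scale (SE 0.16, 95% confidence interval 0.51 to 1.23, adjusted p = 0.00482).

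Of the 12 genes in a list of further TREM2 signalling components, 8 were called higher and 0 lower, with a median log2 fold change of 0.65. The adaptors and scaffolds Lat2 (1.23, adjusted p = 0.00275) and Card9 (1.14, adjusted p = 0.00223), the exchange factor Vav1 (1.02) and the lipid phosphatase Inpp5d (0.99), which restrains the pathway, had the highest log2 fold changes. The kinase Syk, which docks on TYROBP, changed by 0.64 (adjusted p = 0.0172) and the phospholipase Plcg2 by 0.66 (adjusted p = 0.00586). The proteases that release the TREM2 ectodomain differed from each other, with Adam17 called higher (0.59, adjusted p = 0.00323) and Adam10 at a log2 fold change of -0.02 (adjusted p = 0.895). Malt1 (-0.23), Hcst (0.06) and Bcl10 (0.46) were not called.

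The 250 bases upstream of the Trem2 start are shown with those of Spp1, the gene with the largest rise among the 10, because both hold a match to GAGGAAG, the core letters bound by the myeloid factor PU.1. Capitals mark matches on either strand to GAGGAAG or to TGANTCA, the AP-1 site, and no 2 matches overlap.
Trem2 upstream, chr17:48346151-48346400, plus strand: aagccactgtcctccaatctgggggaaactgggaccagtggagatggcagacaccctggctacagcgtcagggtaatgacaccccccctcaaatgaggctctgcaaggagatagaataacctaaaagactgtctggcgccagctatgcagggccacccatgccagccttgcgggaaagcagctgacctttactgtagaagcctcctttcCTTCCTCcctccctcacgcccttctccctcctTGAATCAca
Spp1 upstream, chr5:104434861-104435110, plus strand: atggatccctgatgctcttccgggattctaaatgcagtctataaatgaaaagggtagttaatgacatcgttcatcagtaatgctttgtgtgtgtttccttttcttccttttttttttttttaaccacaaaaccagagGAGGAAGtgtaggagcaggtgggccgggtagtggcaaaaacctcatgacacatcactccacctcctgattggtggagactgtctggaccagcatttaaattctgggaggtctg

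The sequences are from RefSeq on GRCm38.p6, which had promoters for 8 of the 10 genes. The letters GAGGAAG were in 10.6% of all 32851 such upstream windows and in 3 of the 12 windows of these genes, in Axl, Spp1 and Trem2. TGANTCA was in 6.75% of all windows and in 3 of the 12, in Cd68, Itgax and Trem2. A second Spp1 window, chr5:104435942-104436191, held neither. These matches are descriptions of the letters and say nothing of binding in these mice.

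Itgax, Clec7a and Axl are surface receptors of other families. Itgax (CD11c, ENSMUSG00000030789, chr7:128129547-128150657, plus strand) is the alpha chain of an integrin and a marker of plaque-associated microglia. It had 28.2, 33.6 and 20.03 CPM in the controls and 47.1, 74.1 and 70.2 CPM in the L-DL KD-labelled libraries, with the groups apart and a log2 fold change of 1.22 (SE 0.22, 95% confidence interval 0.72 to 1.73, adjusted p = 0.00471). Its beta chain Itgb2 also rose (0.74, adjusted p = 0.00428), as did the sister alpha chain Itgam (1.58, adjusted p = 0.000798), while the alpha chain Itgal, which is typical of lymphocytes, was at -0.60 (adjusted p = 0.0887) and was called lower by DESeq2, with no filter on low counts, and without L-DL KD replicate 3.

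Clec7a (dectin-1, ENSMUSG00000079293, chr6:129461591-129472779, minus strand) is a C-type lectin receptor for fungal beta-glucans. It had 58.2, 43.5 and 31.5 CPM in the controls and 46.1, 75.7 and 80.1 CPM in the other group, with replicate 1 of the libraries labelled L-DL KD inside the range of the controls. The log2 fold change was 0.60 (SE 0.26, 95% confidence interval 0.01 to 1.19), with an unadjusted p of 0.0466 and an adjusted p of 0.113 by edgeR's quasi-likelihood test. It was called higher with L-DL KD replicate 1 left out (0.82, adjusted p = 0.0126), with no filter on low counts (adjusted p = 0.0382) and by DESeq2 (adjusted p = 0.0259), and the adjusted p lay between 0.0126 and 0.295 over all alternatives.

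AXL is a receptor tyrosine kinase of the TAM family that binds dying cells through the bridging ligands GAS6 and PROS1. Axl (ENSMUSG00000002602, chr7:25757273-25788705, minus strand) had 140, 120 and 112 CPM in the controls and 207, 245 and 250 CPM in the L-DL KD-labelled libraries. The groups were apart, with a log2 fold change of 0.92 (SE 0.11, 95% confidence interval 0.67 to 1.16, adjusted p = 0.000749). Both ligands were called higher, Pros1 by 1.31 (adjusted p = 7.94e-05) and Gas6 by 0.53 (adjusted p = 0.0232), but Gas6 was not called without control replicate 1 or without control replicate 2, where 1 gene of this list of 4 was. The sister receptors were not called, Mertk at 0.22 (adjusted p = 0.447) and Tyro3 at -0.32 (adjusted p = 0.0749), although Tyro3 was called lower by DESeq2, with no filter on low counts, and without L-DL KD replicate 1, where Mertk was called higher.

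Apoe and Lpl handle lipids. Apolipoprotein E carries cholesterol between brain cells and is made in the healthy brain mainly by astrocytes. Apoe (ENSMUSG00000002985, chr7:19696109-19699188, minus strand) had 3747, 3242 and 3612 CPM in the controls and 7519, 9418 and 10630 CPM in the L-DL KD-labelled libraries. The groups were far apart, with a log2 fold change of 1.38 (SE 0.13, 95% confidence interval 1.08 to 1.68, adjusted p = 0.000336). Reads across 1 Apoe splice junction, counted separately in the splicing table, numbered 9544, 9119 and 9565 in the controls and 21296, 29310 and 29501 in the other group. These are unscaled counts of reads from the same libraries, so they are no separate measure of the difference.

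Lipoprotein lipase splits triglycerides of lipoproteins and is made by neurons as well as by microglia. Lpl (ENSMUSG00000015568, chr8:68880491-68907448, plus strand) had 30.1, 27.3 and 30.1 CPM in the controls and 41.8, 54.2 and 71.6 CPM in the L-DL KD-labelled libraries. The 3 controls were close together and the other group was spread out above them, with a log2 fold change of 0.94 (SE 0.18, 95% confidence interval 0.53 to 1.35, adjusted p = 0.0061).

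Of 12 further lipid-handling genes, 9 passed the filter on low counts, of which 4 were called higher, 0 lower and 5 not called. Apoc1, which lies next to Apoe, had a log2 fold change of 2.46 (SE 0.32, adjusted p = 0.00113). The cholesterol exporters Abca1 (1.35, adjusted p = 0.000292) and Abcg1 (0.87, adjusted p = 0.00053) and the Apoe receptor Lrp1 (0.79, adjusted p = 0.000324) rose as well. The genes of the liver X receptors, which drive these exporters, were not called, with Nr1h2 at 0.07 (adjusted p = 0.603) and Nr1h3 at -0.28 (adjusted p = 0.408). The lipase inhibitor Angptl4 (0.79) and the lipase maturation factor Lmf1 (0.08) were not called either, and Apoc2, Apoc4 and Gpihbp1 were not tested.

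Cst7 and Cd68 belong to the endosomes and lysosomes. Cystatin F, the product of Cst7, inhibits cysteine proteases inside cells. Cst7 (ENSMUSG00000068129, chr2:150570415-150578944, plus strand) had 69.6, 66.5 and 40.8 CPM in the controls and 57.4, 91.9 and 105 CPM in the L-DL KD-labelled libraries. The groups overlapped, since L-DL KD replicate 1 was below control replicates 1 and 2, and the log2 fold change of 0.52 was not called (SE 0.25, 95% confidence interval -0.06 to 1.1, unadjusted p = 0.0735, adjusted p = 0.159 by edgeR's quasi-likelihood test). It was called only without L-DL KD replicate 1 (0.74, adjusted p = 0.0172), with adjusted p-values from 0.0717 to 0.386 under the other alternatives.

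All 5 proteases of the list of cystatin F targets were called higher, at log2 fold changes of 1.06 for Ctsl (adjusted p = 0.000219), 1.04 for Ctsh, 1.04 for Lgmn, 0.74 for Ctss and 0.62 for Ctsc (adjusted p = 0.0143). CD68 is a heavily glycosylated protein of the lysosomal membrane and a common stain for phagocytic microglia. Cd68 (ENSMUSG00000018774, chr11:69664213-69666153, minus strand) had 70.0, 57.4 and 49.1 CPM in the controls and 87.9, 122 and 149 CPM in the L-DL KD-labelled libraries. These groups were apart, with a log2 fold change of 1.02 (SE 0.20, 95% confidence interval 0.57 to 1.48, adjusted p = 0.00644).

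Osteopontin, encoded by Spp1, is a secreted phosphoprotein that binds integrins and CD44. Spp1 (ENSMUSG00000029304, chr5:104435118-104441050, plus strand), whose upstream sequence is given above, had 18.1, 15.9 and 21.8 CPM in the controls and 87.4, 68.5 and 106 CPM in the L-DL KD-labelled libraries. Its lowest value in the latter group was far above its highest control value, and the log2 fold change of 2.23 (SE 0.18, 95% confidence interval 1.82 to 2.64, adjusted p = 0.000197), a 4.7-fold rise, was the largest of the 10 and ranked at place 119 of all 17621 genes tested. Spp1 was the only one of the 10 in which L-DL KD replicate 1 was not the lowest of its group, with replicate 2 the lowest.

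Reads across a Spp1 junction, taken from the splicing table, numbered 114, 84 and 119 in the controls and 583, 468 and 607 in the other group. Spp1 shares 309 exon bases with Gm42793, a gene annotated on the same strand, which had 0 counts in every control and 1, 0 and 3 counts in the other group. Of 6 receptor chains for osteopontin, 5 were called higher, namely Cd44 (1.11, adjusted p = 0.00954), Itgb5 (1.05, adjusted p = 8.91e-05), Itgb1 (0.86), Itgb3 (0.66) and Itgav (0.61), while Itga4 was at 0.18 (adjusted p = 0.522).

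**Figure D2:**
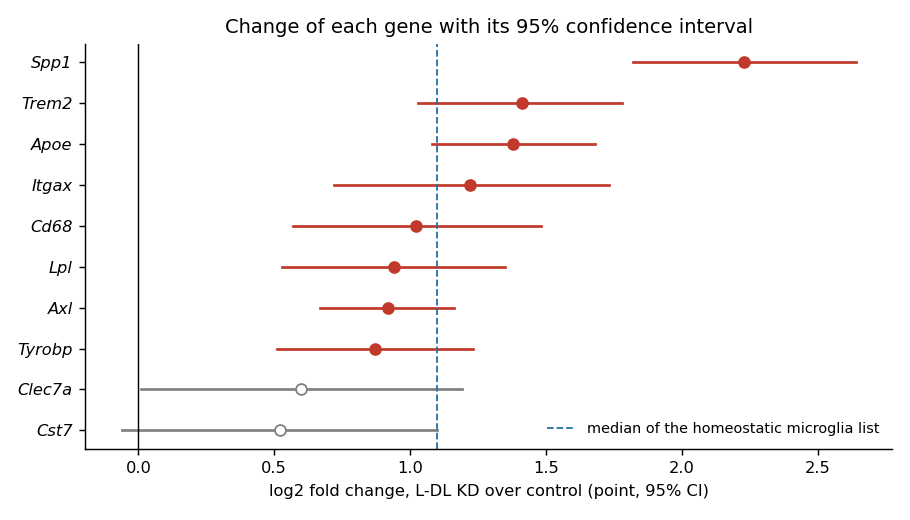
Log2 fold change of each gene, L-DL KD over control, with its 95% confidence interval (filled red where called, open grey where not). The dashed line is the median of the homeostatic microglia list, 1.1, which lies within the intervals of the called genes other than Spp1 and below that of Spp1.

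Levels of different genes were compared per length, as CPM per kilobase of the principal transcript (RPKM), from the control means. Apoe was highest at 2510 RPKM, followed by Tyrobp (74.8), Clec7a (62.8), Cst7 (59.8), Trem2 (53.2), Cd68 (47.8), Axl (29.0), Spp1 (12.3), Lpl (7.09) and Itgax (6.75). Apoe, Axl and Spp1 stood apart from both neighbours in this order, whereas the libraries of neighbours from Tyrobp to Cd68, and of Lpl and Itgax, overlapped. In the libraries labelled L-DL KD, Trem2 took the second place at 141 RPKM and Spp1 (58.0 RPKM) stood above Axl (54.9 RPKM), each overlapping with the next. The length matters for Trem2, Clec7a and Lpl, whose control means became 11.7, 16.8 and 2.78 RPKM when all annotated exon bases were counted.

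Homeostatic microglia genes, which fall in the usual account of the DAM state, were higher as well. All 13 genes of a homeostatic list were called higher, with a median log2 fold change of 1.1, including Fcrls (2.57, adjusted p = 4.55e-05), Olfml3 (1.79), the fractalkine receptor Cx3cr1 (1.53) and the survival receptor Csf1r (1.34). The lowest of the 13 were P2ry12 (0.57, adjusted p = 0.00782) and Tmem119 (0.60, adjusted p = 0.0118), named here after their values were seen. All 10 markers of microglia and macrophages in any state were also called higher, at a median of 1.0, led by Itgam (1.58), Ly86 (1.22), Laptm5 (1.11) and Aif1 (1.06). The summed CPM of the homeostatic list went from 1658 to 1847 in the controls to 3635 to 4158 in the L-DL KD-labelled libraries, and that of the 10 DAM genes from 3714 to 4266 up to 8272 to 11740, most of it from Apoe.

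To compare the 10 genes with these markers within each library, the count of each was divided by the summed count of the homeostatic list. With 3 against 3 libraries the exact two-sided permutation test used for these ratios cannot give a p below 0.1, and its p-values are given as they are, with no call. Relative to the homeostatic list, Spp1 numbered 10.49, 8.59 and 13.2 per 1000 marker counts in the controls and 24.0, 17.0 and 25.5 in the L-DL KD-labelled libraries, a log2 difference of 1.05 (exact permutation p = 0.1). Spp1 was the one gene of the 10 whose groups were apart with the higher ratio in the L-DL KD-labelled libraries, where 1.04% of all genes tested were.

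Tyrobp, at 26.9, 23.4 and 22.4 per 1000 marker counts against 16.4, 20.04 and 21.8, and Axl, at 81.0, 64.9 and 67.6 against 57.0, 60.8 and 60.1, were apart with the lower ratio in the L-DL KD-labelled libraries (exact permutation p = 0.1 for each). So were 84.6% of all genes tested, and the markers themselves had risen. The ratios of the other 7 genes overlapped, with log2 differences from -0.66 for Cst7 and -0.57 for Clec7a up to 0.19 for Apoe and 0.22 for Trem2.

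Over the summed list of microglia and macrophage markers in any state, 3 of the 10 genes were apart and higher, where 1.78% of all genes tested were. These were Spp1, with a log2 difference of 1.31, Trem2, with 0.48, and Apoe, with 0.46 (exact permutation p = 0.1 for each). Trem2 numbered 27.1, 32.9 and 31.2 per 1000 of these marker counts in the controls and 39.6, 43.1 and 44.9 in the L-DL KD-labelled libraries. None of the 10 was apart and lower, as 73.2% of all genes tested were, and Tyrobp (-0.06), Axl (0.01) and Lpl (-0.01) differed little from these markers.

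The homeostatic sum rests to 48.2 to 53.2% on Cst3, which neurons and astrocytes also express. Without Cst3, which was left out after the values had been seen, Spp1 was again the one gene apart and higher, and Clec7a and Cst7 joined Tyrobp and Axl as apart and lower, beside 0.885% of all genes tested apart and higher and 86.0% apart and lower. Without L-DL KD replicate 1, Trem2 and Apoe joined Spp1 as apart and higher over the homeostatic list. With Cst3 left out as well, only Trem2 joined Spp1. The share of all genes was not taken with this library left out, where groups separate more easily.

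**Figure D3:**
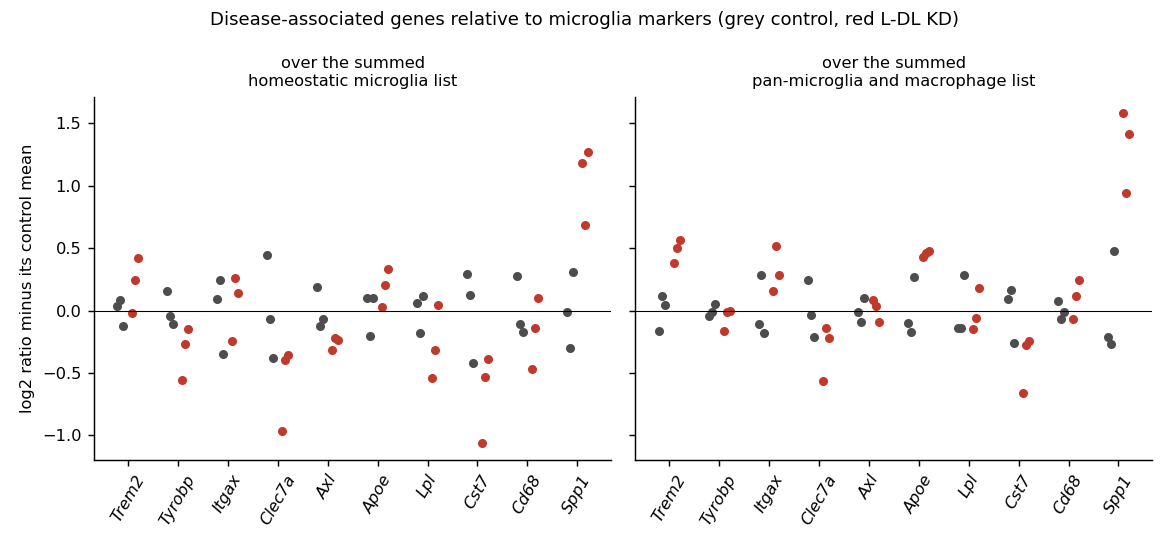
Log2 ratio of each gene to the summed homeostatic list (left) and to the summed list of microglia and macrophage markers (right), minus the control mean, with 1 point per library. The points of the libraries labelled L-DL KD lie above the controls for Spp1 in both panels, and for Trem2 and Apoe in the right one.

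Other genes of the DAM state moved less evenly. Of a wider list of 24 DAM genes, 15 were called higher, 0 lower and 9 were not called, with a median log2 fold change of 0.60. The cholesterol 25-hydroxylase Ch25h (2.49, adjusted p = 0.00243), the chemokines Ccl6 (2.05, adjusted p = 0.00191) and Ccl3 (1.24, adjusted p = 0.0034) and the tetraspanin Cd9 (1.07, adjusted p = 8.19e-05) had the largest changes. Among those not called were Gpnmb (-0.59, adjusted p = 0.201), Lgals3 (-0.17, adjusted p = 0.718), Igf1 (0.01, adjusted p = 0.977) and Lyz2 (0.02, adjusted p = 0.978), which are named here after their values were seen.

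The 4 genes outside the set reported here whose CPM profile over the 6 libraries was closest to the mean profile of the 10 were Tmem221, Anxa3, Fcer1g and Laptm5, at a root mean square difference of 0.0508 to 0.0604 on the log2 scale. Within the set, Cd68 was the closest to the mean profile at 0.0857, and Spp1 (0.626), Cst7 (0.342) and Clec7a (0.307) were the farthest.

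**Figure D4:**
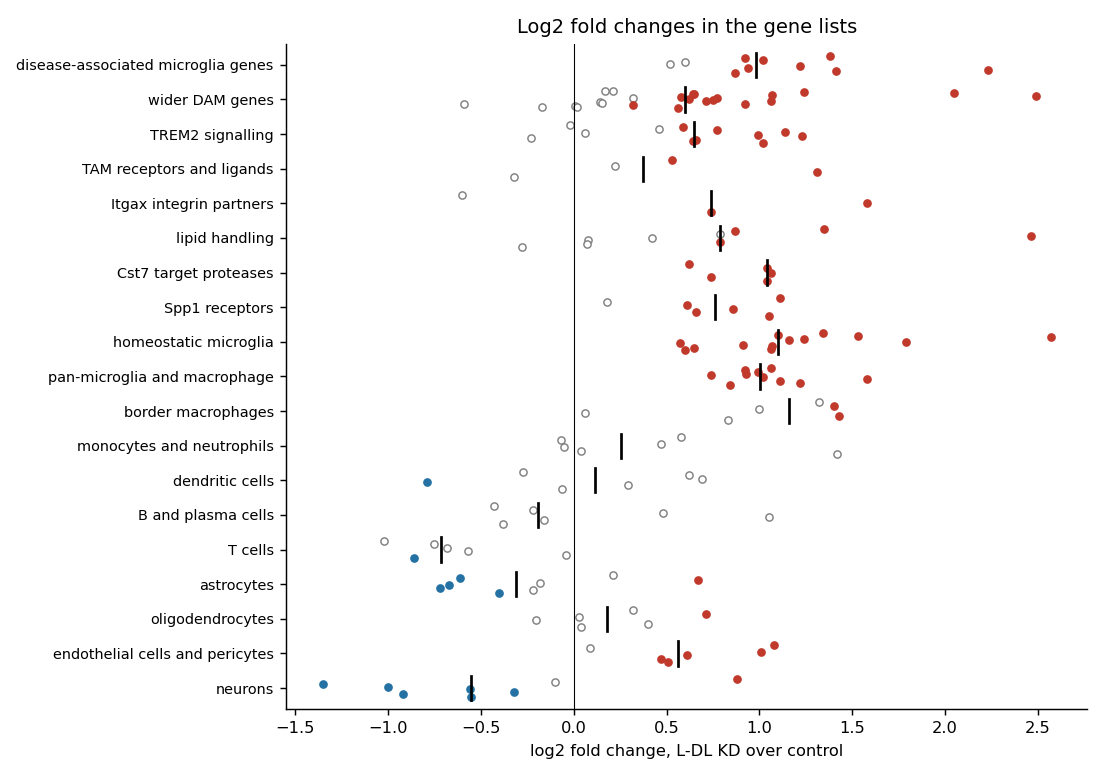
Log2 fold changes of the genes in each list, 1 point per tested gene (red called higher, blue called lower, open not called) and a black bar at the median. All points of the homeostatic and the pan-microglia lists are red, whereas the lists of other immune cells are mostly open and the neuronal list is mostly blue.

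Markers of other cell types moved too, and their part in the changes of the 10 genes was not tested. Of 8 border macrophage markers, 6 were tested and 2 were called higher, Mrc1 (1.43, adjusted p = 0.0182) and Cd163 (1.40, adjusted p = 0.0417, named after its value was seen, with overlapping groups). Their summed level ran from 25.6 to 40.1 CPM in the controls and from 37.5 to 102 CPM in the L-DL KD-labelled libraries. None was called without any 1 of the 3 controls, 1 was called without L-DL KD replicate 2 or 3, and 5 were called without L-DL KD replicate 1. With the replicate number added to the fit, 1 was called. No marker of any list was at 0 in all libraries.

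Blood cell markers showed few calls. Of the monocyte and neutrophil markers 0 of 6 tested were called (summed level 31.5 to 36.4 against 30.2 to 55.9 CPM), although 2 were called higher without L-DL KD replicate 1. Of 6 dendritic cell markers, among which Itgax itself is often counted, only Flt3 was called, and it was lower (-0.79, adjusted p = 0.00759, summed level of the list 24.4 to 37.2 against 24.9 to 30.2 CPM). Of 6 B and plasma cell markers 0 were called (33.0 to 204 against 118 to 330 CPM). With the replicate number added to the fit, 1 of these was called higher. So was 1 monocyte and neutrophil marker, while 2 T cell markers were called lower. Of 6 T cell markers only Trac was called, and it was lower (-0.86, adjusted p = 0.0151, summed level 36.1 to 53.7 against 21.9 to 35.8 CPM), with 0 called without control replicate 2 and 2 without L-DL KD replicate 3.

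Among brain cells, 4 of 8 astrocyte markers were called lower, such as S100b (-0.72), Gja1 (-0.67) and Aldoc (-0.61), and Aqp4 was called higher (0.67), with a summed level of 7884 to 8029 CPM in the controls and 6132 to 7220 CPM in the L-DL KD-labelled libraries. Of 8 neuronal markers 6 were called lower, including Rbfox3 (-1.35), Snap25 (-1.0) and Syt1 (-0.92), and Nefl was called higher (0.88), with a summed level of 4528 to 4763 against 2917 to 3557 CPM. Of 6 endothelial and pericyte markers 5 were called higher, led by Cldn5 (1.08) and Pdgfrb (1.01), with 3 called without control replicate 2 (296 to 324 against 408 to 488 CPM). Of 6 oligodendrocyte markers 1 was called higher, Mag (0.71), with 3 called without L-DL KD replicate 3 (7552 to 8069 against 6529 to 9542 CPM).

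The study was made to find splicing changes, so the splicing events of the 10 genes were read from the deposited junction counts. The inclusion level PSI is the share of the form that includes a segment, after division by the effective length of each form. The table gives 3 values for each of 2 sets with no replicate numbers, and the first set was taken as L-DL KD because the deposited difference is the first set minus the second and the methods define it as L-DL KD minus control. It lists 23 events for 8 of the 10 genes, 8 of them in Axl, 4 each in Apoe and Cd68, 2 each in Trem2 and Tyrobp and 1 each in Clec7a, Cst7 and Spp1. For Itgax and Lpl it lists none.

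Of the 23 events, 18 passed the minimum for the test, which was a mean per library of 20 junction reads in all and of 1 read of each form. None of the 18 was called at an adjusted p under 0.05, and 0 had an unadjusted p under 0.05 (edgeR's quasi-likelihood test on junction counts), against 0.255% and 13.3% of all 18829 events tested. The smallest adjusted p was 0.407. In 15 of the 23 events the mean PSI was below 0.05 or above 0.95, so nearly all reads were of 1 form.

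The alternative segments of Axl, Trem2 and Clec7a are shown, as examples of annotated coding segments with intermediate inclusion. Capitals mark the alternative segment and lower case the 14 bases on either side in the spliced transcript (GRCm38, GENCODE M21).
Axl, chr7:25773099-25773125, minus strand, 27 bases: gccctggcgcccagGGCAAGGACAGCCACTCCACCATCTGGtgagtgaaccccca
Trem2, chr17:48351691-48351745, plus strand, 55 bases: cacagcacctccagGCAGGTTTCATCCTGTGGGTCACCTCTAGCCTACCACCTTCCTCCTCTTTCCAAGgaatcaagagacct
Clec7a, chr6:129468869-129469003, minus strand, 135 bases: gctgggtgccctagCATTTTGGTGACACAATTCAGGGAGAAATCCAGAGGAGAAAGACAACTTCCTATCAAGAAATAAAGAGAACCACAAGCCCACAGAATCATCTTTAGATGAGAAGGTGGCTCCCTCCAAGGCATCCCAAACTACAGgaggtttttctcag

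The Axl segment is a coding exon of the transcript Axl-201. In the event with most reads, 125 to 303 per library, PSI was 0.830, 0.918 and 0.907 in the controls and 0.899, 0.837 and 0.874 in the L-DL KD-labelled libraries. The groups overlapped, with a difference of -0.015 (exact permutation p = 0.6, edgeR adjusted p = 0.918).

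The other Axl events with intermediate inclusion involve the same exon or the 151-base exon before it, and share reads with each other. A second event of the 27-base exon, with 12 to 33 reads per library, had PSI values of 1.0, 0.574 and 0.544 in the controls and 0.927, 0.856 and 0.895 in the other group (edgeR adjusted p = 0.568). The 151-base exon had PSI values of 1.0, 0.294 and 0.565 against 0.846 in each of the 3 others from 18 to 48 reads (edgeR adjusted p = 0.563), and in another event 0.949, 0.824 and 1.0 against 0.970, 0.992 and 0.952 from 112 to 244 reads (edgeR adjusted p = 0.562). The choice between both exons had 20 to 72 reads, with PSI as the share of the 151-base exon. It was at 0.432, 0.236 and 0.522 against 0.301, 0.480 and 0.392 (edgeR adjusted p = 0.991). The controls were spread more widely than the other group in these events, and the groups overlapped in each.

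The Trem2 segment lies at the start of an exon, where a 3 prime splice site further upstream adds it to the coding sequence of Trem2-202, and its 55 bases are not a multiple of 3. It was present in a minority of reads, with PSI values of 0.195, 0.164 and 0.116 in the controls and 0.169, 0.196 and 0.155 in the other group, from 277 to 1147 reads per library. These values overlapped (difference 0.015, exact permutation p = 0.6, edgeR adjusted p = 0.887), so that the rise of Trem2 in the gene counts came with no detectable shift between these forms.

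The Clec7a segment is the third exon of Clec7a-204, annotated as coding in a transcript of the type polymorphic pseudogene, and is skipped in the principal transcript Clec7a-202. Its PSI was 0.131, 0.267 and 0.1 in the controls and 0.107, 0.105 and 0.161 in the L-DL KD-labelled libraries, from 80 to 210 reads per library. The values overlapped (difference -0.042, exact permutation p = 0.7, edgeR adjusted p = 0.803).

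A Cd68 event of a 461-base exon was the one tested event whose groups were apart, with PSI values of 0.914, 0.935 and 0.883 in the controls and 0.958, 0.936 and 0.95 in the L-DL KD-labelled libraries. Its difference of 0.037 was not called (exact permutation p = 0.1, edgeR adjusted p = 0.409), and an overlapping Cd68 event of 434 bases, which shares its skipping reads, had a difference of 0.024 with overlapping groups (edgeR adjusted p = 0.407). The Apoe events held 9120 to 105165 reads per library, and each had a PSI of at most 0.002 or of 1.0 after rounding.

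**Figure D5:**
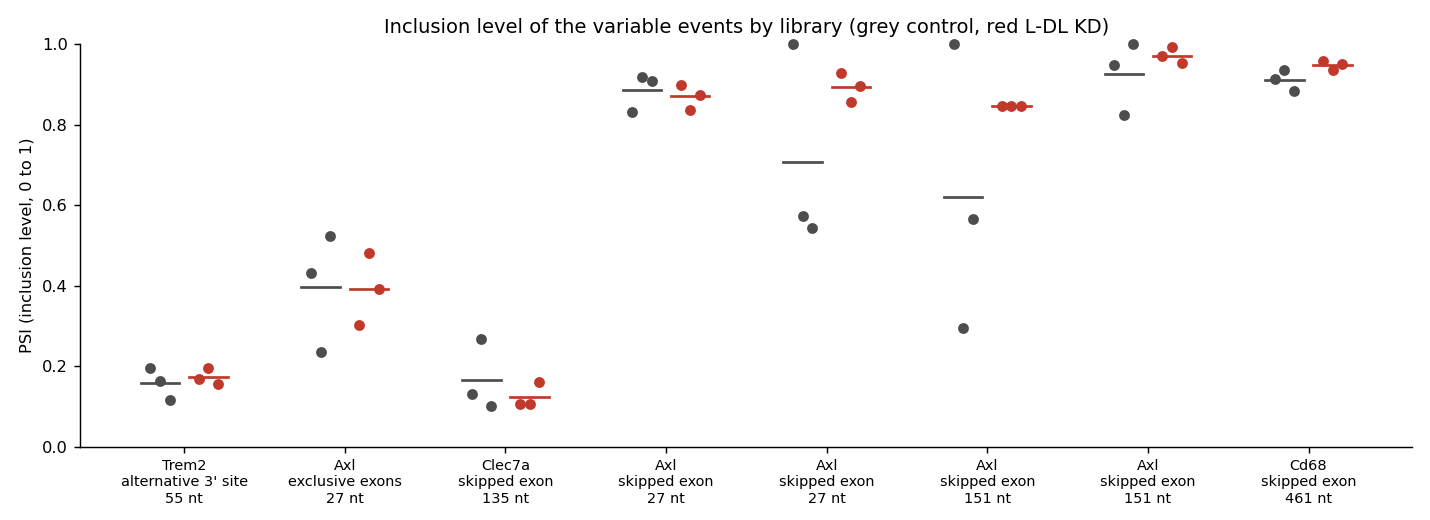
PSI of the tested events with a mean between 0.05 and 0.95, with 1 point per library and a line at the group mean. The points of the groups overlap in every event but that of Cd68 at the right, and the widest spread is among the controls of the Axl events with few reads. For the exclusive exons of Axl the label gives 27 nt, while PSI is the share of the 151-base exon.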

How the data were processed

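The gene table deposited by the authors holds raw counts, not normalized, from oligo(dT)-selected RNA read as 150 nt pairs and aligned to GRCm38. The labels name HISAT2 (2.1.0), HTSeq (0.6.1) and Bowtie (1.1.2), and do not state whether counting used strand. The authors also deposited rMATS junction counts with effective lengths, used here as other values, and p-values, FDR, PSI and their difference, which were not used.

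Gene counts, with TMM scaling, entered edgeR's quasi-likelihood test (4.0.16, R 4.3.3) where a gene had at least 10 counts in at least 3 libraries, with Benjamini-Hochberg adjustment over all genes tested. Junction counts were tested with edgeR on 12 columns with library effects. Ratios and single PSI values were compared by exact two-sided permutation in scipy (1.17.1). Both models were tested on simulated data. The precision rests on 3 libraries per group. Lengths and positions are from GENCODE, whose identifiers matched 52403 of the 52550 genes.

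The 10 genes and all lists were chosen with earlier results of these data known. Named genes are the 10 genes, Hnrnpdl, any gene of the signalling, receptor, lipid and protease lists, up to 4 called genes with groups apart from each other list, and the 5 closest profiles, of which some genes are not reported here. Alternatives were DESeq2 (1.42.0), a replicate block, other filters, scaling by library size, another marker sum, another count minimum for events, PSI without effective lengths, and leaving out each library.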

Additional observations from a re-analysis of the deposited data

How the results depend on the processing

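The number of the 10 genes called higher was 8 under scaling by library size, a minimum of 1 CPM in 3 libraries and the replicate block, 9 with no filter on low counts and by DESeq2, and 8 to 10 with 1 library left out. No gene of the 10 changed direction under these alternatives, and only Clec7a and Cst7 changed their call. Same-numbered libraries had deviations correlated at 0.0626, 0.157 and -0.1401, and differently numbered ones from -0.2243 to 0.162. These values show no pairing by replicate number but cannot settle whether there was one. The replicate block moved the number of all genes called from 2743 to 2311 higher. Without 1 library, 1770 to 3236 genes were called higher and 1676 to 3241 lower, against 2743 and 2636. The number of genes apart and higher over the homeostatic list was 1, and was 3 over the microglia and macrophage list, 1 without Cst3 and 1 to 3 with 1 library left out. Events called among the 10 genes numbered 0 with a minimum of 10 counts and 0 with each library left out in turn, while calls over all events ranged from 0 to 52, against 48. PSI without effective lengths reversed no difference of an event named above. With 3 libraries a group, small changes can be missed, and the events with few reads are limited by depth. The cause of these shifts was not tested.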
